A study of Mus musculus with 8 samples.

Results

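CGRP-z is 1 of 20 clusters of mouse dorsal root ganglion cells, and its name is the one given by the authors. Its members are the 1496 genes that the authors' deposited table of cluster markers lists for it, of 9229 genes in the table and 56694 pairs of gene and cluster. CGRP-z has the shortest list of the 20 clusters, and 7733 genes of the table have no entry for it. By a calculation from the fractions of cells in the deposited table, the cluster held 1.36% of all cells, 3.34% of the cells in the 10 named neuron clusters and 7.94% of those in the 4 CGRP clusters. Only Heat.sen was smaller, at 1.24%.

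The ganglia came from C57BL/6 mice aged 21 to 30 days, and each sample combined all ganglia from 4 mice. Living dissociated cells were exposed for 30 min to an antibody to the proteasome subunit β5 and for 40 min to a fluorescent secondary antibody, and were sorted by fluorescence into NMP-positive and NMP-negative cells, where NMP stands for the neuronal membrane proteasome, a proteasome exposed at the surface of neurons. Both populations carry the same genotype and the same labelling treatment, and differ only in the sort. The labels list 4 samples for each, which were taken here as 4 lanes of 1 library, a reading that the sample titles do not settle. On that reading no biological replicate is shown. On any reading the table names no sample, so no value below has a replicate error. For the same reason it does not tell which CGRP-z cells were NMP-positive.

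Peptidergic sensory neurons release peptides such as calcitonin gene-related peptide (CGRP), the product of Calca, from their endings in the skin and viscera and in the spinal cord. Many of them signal pain, heat or irritants, and single-cell atlases divide them into several subtypes that differ in peptides, ion channels, growth factor receptors and adhesion molecules. The genes below are ordered by these roles.

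The deposited table compares the cells of a cluster with all other cells. For each gene it gives a log2 fold change, the share of cells in which a transcript was detected on each side, and an adjusted p-value. A gene is called higher or lower here when that adjusted p-value is under 0.05. Because the clusters were made from the same expression values, and because cells served as the units, these p-values were used as a filter and not as a test. The other cells comprised the remaining neuron clusters, 3 clusters of few transcripts per cell (Low.UMI, 28.6% of all cells) and 7 clusters named Unknown (30.7%). A gene that is common to neurons can therefore be higher in CGRP-z. No difference between CGRP-z and another single cluster was tested.

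Most genes listed for CGRP-z lay above the other cells. By the authors' deposited table, CGRP-z had 1045 higher genes, which is 11.3% of all genes in the table, and 66 lower genes, which is 0.715%. The median log2 fold change was 0.33 over the listed genes and 0.45 over the higher ones. Of the higher genes 127 reached a log2 fold change of 1, 10 reached 2 and 1 reached 3. The filter was the same for both directions, but 2 of the 1047 genes with a fold change above 0 and 383 of the 449 below 0 did not pass it. Higher genes were also more widely detected, in a median of 94.4% of CGRP-z cells and 39.3% of other cells, and 0 of them were found in a smaller share of CGRP-z cells than of other cells.

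**Figure D1:**
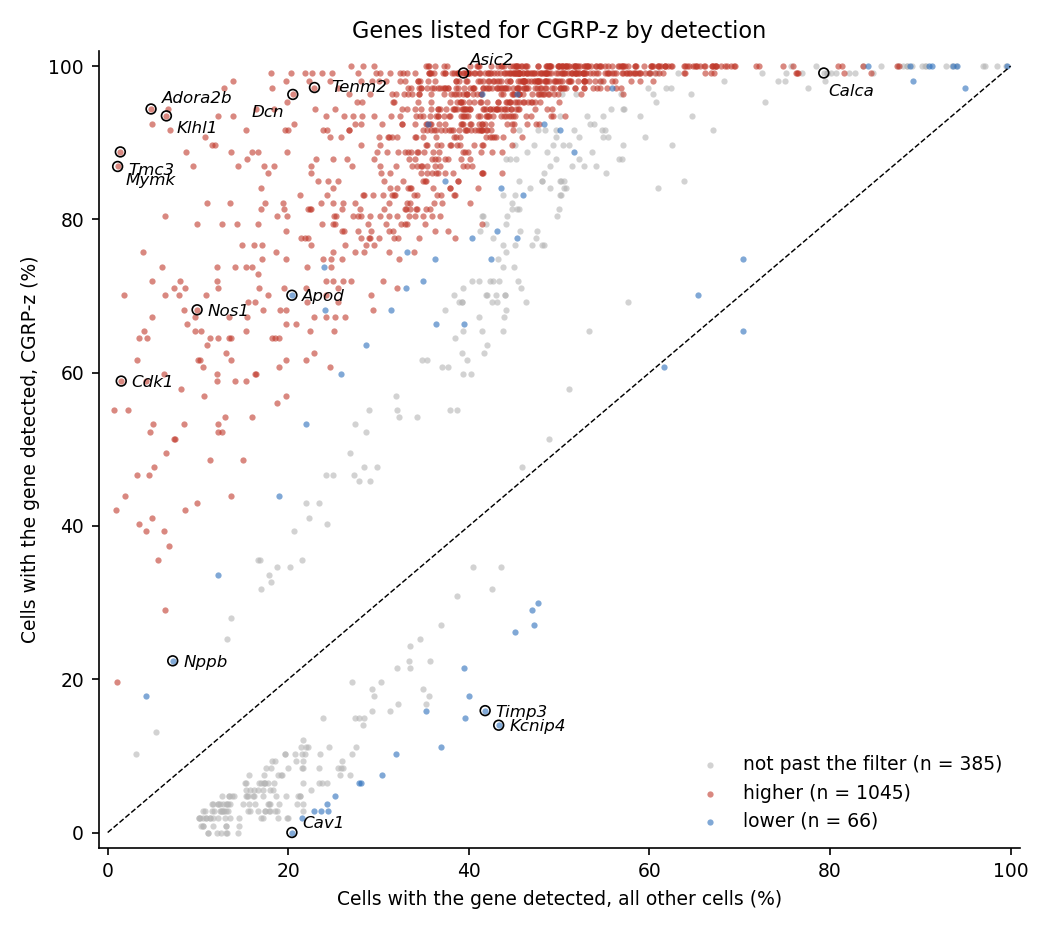
Share of cells with a transcript detected, in CGRP-z (vertical axis, %) and in all other cells (horizontal axis, %), for the 1496 listed genes, each point being 1 gene. The 1045 higher genes all lie above the dashed line of equal shares, and 42 of the 66 lower genes do so too, among them Apod.

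The 20 genes of largest fold change were led by adhesion molecules, channels and receptors. The markers given for the cluster were its first 3: Tenm2, a teneurin of the cell surface that binds latrophilins, Asic2, a subunit of acid-sensing channels, and Klhl1, an actin-binding kelch-like protein. In the authors' deposited table Tenm2 had a log2 fold change of 3.75 and was in 97.2% of CGRP-z cells and 22.9% of other cells. Asic2 stood at 2.96 there, in 99.1% against 39.4% of cells. Klhl1 stood at 2.62 in the deposited table, in 93.5% against 6.5% of cells.

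These 3 genes had different distributions over the other clusters. Klhl1 was listed for 1 other cluster in the authors' deposited table, CGRP-a, at 0.33 and in 53.1% of its cells. Tenm2 was also higher in Unknown.6 (3.07), Unknown.5 (1.98), Heat.sen (1.71) and CGRP-e (0.75) in the deposited table, and lower in CGRP-a (-0.32). In the other 5 Unknown clusters Tenm2 was found in 0.0 to 2.3% of cells. For Asic2 the deposited table gave 1.84 in LTMR, 1.05 in Non-peptidergic, 0.99 in CGRP-a, 0.85 in Heat.sen and 0.72 in Cold.sen. Asic2 had no entry for CGRP-e or CGRP-n. In the reference annotation Asic2 overlaps Gm11418 on the opposite strand, also higher in CGRP-z, and reads of both cannot be told apart where counting did not use strand.

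The other leading genes included, in falling order, Cacna1e (2.42 in the authors' deposited table), Thsd7b (2.30), March1 (2.25), Lsamp (2.15), Gabrg3 (2.09), Kcnmb2 (2.02), Nrg1 (2.00), Nwd2 (1.96) and Pcdh7 (1.96). After them the deposited table gave Zmat4 (1.94), Grm7 (1.94), Pcdh15 (1.93), Dcn (1.91), Pcdh9 (1.85), Grm8 (1.82) and Gal (1.79). Cacna1e codes for the pore of R-type calcium channels, March1 for a membrane-bound ubiquitin ligase, Kcnmb2 for an auxiliary subunit of the large-conductance calcium-activated potassium channel, and Nrg1 for neuregulin, a ligand of ErbB receptors. For 15 of the 20 genes of largest fold change CGRP-z had the largest fold change among all clusters with an entry. The exceptions in the deposited table were Thsd7b (3.71 in Heat.sen), Lsamp (3.11 in Heat.sen), Pcdh9 (2.90 in Heat.sen), Grm7 (2.19 in Cold.sen) and Dcn (5.73 in Unknown.6). Of all 1045 higher genes, 246 (23.5%) had their largest listed fold change in CGRP-z.

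**Figure D2:**
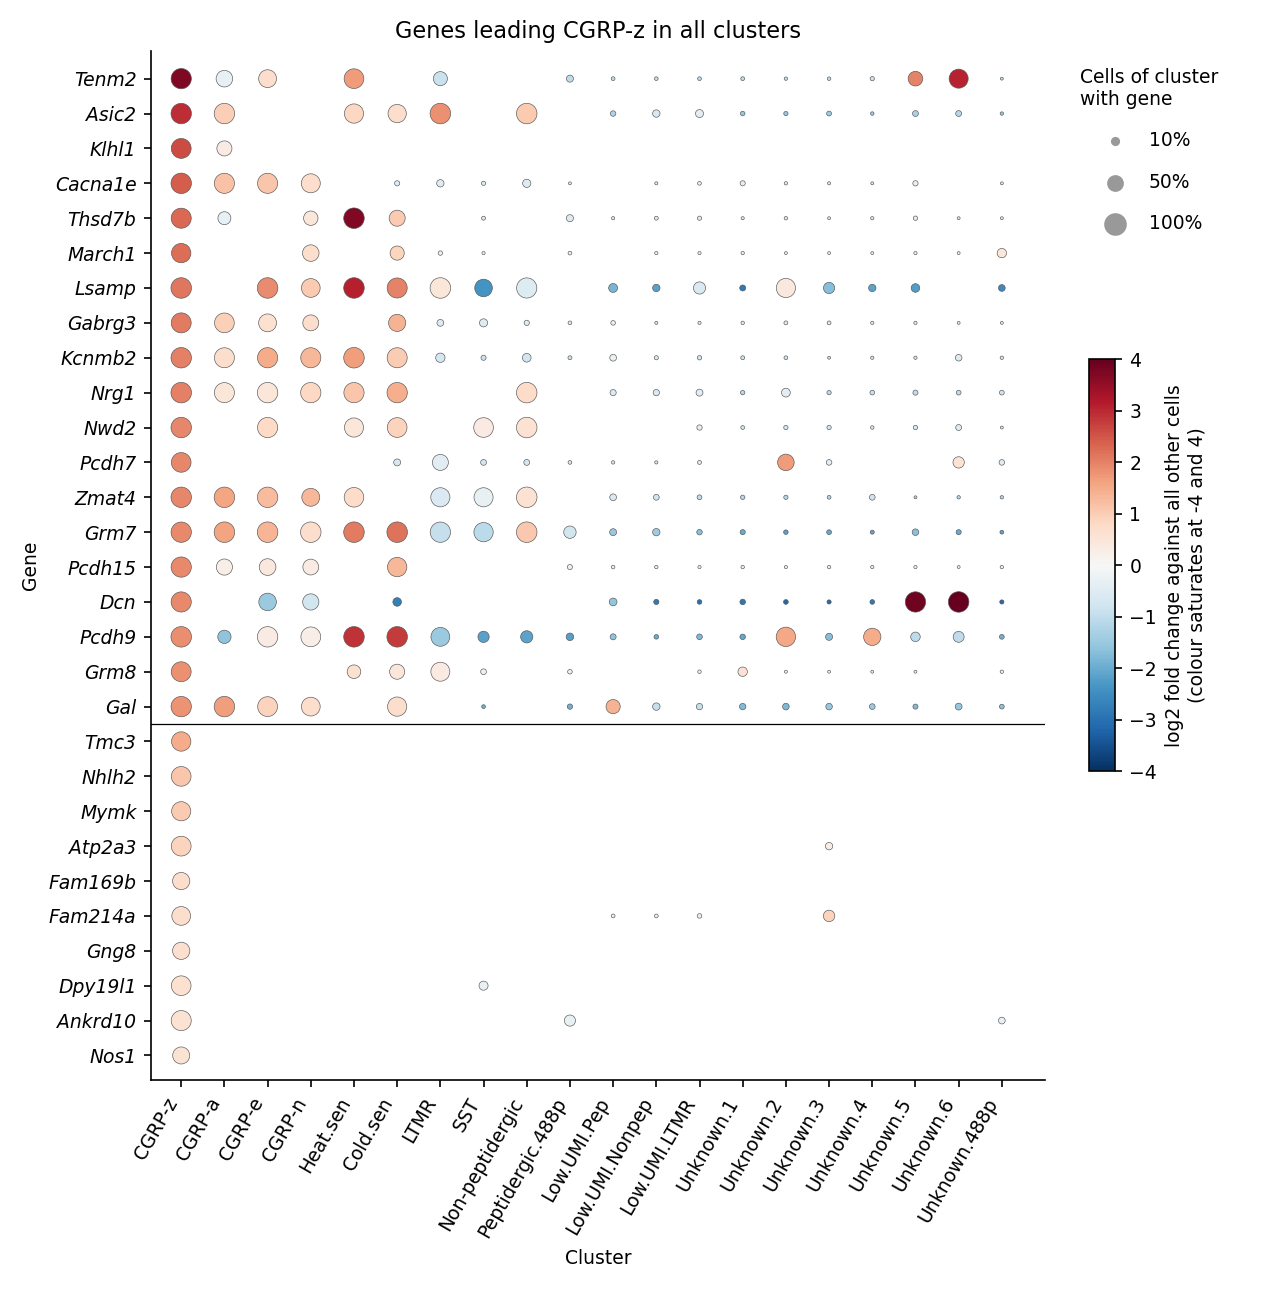
Leading genes (above the line) and the 10 genes of largest fold change among those higher in CGRP-z and in no other cluster (below it), in all 20 clusters. Colour gives the log2 fold change against all other cells, the area of a circle increases with the share of the cluster's cells with the gene, and an empty place is a pair without an entry; most upper genes have entries in many other clusters, Klhl1 having 1, while the lower ones have few entries outside CGRP-z.

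A set of 84 genes (0.910% of those in the table) was higher in CGRP-z and in no other cluster. These comparisons share cells, and a missing entry can stand for a level close to that of the remaining cells or for rare detection, so the count is a description. Tmc3, of the transmembrane channel-like family, led the set in the authors' deposited table at 1.48, in 88.8% of CGRP-z cells and 1.4% of other cells. Nhlh2, a basic helix-loop-helix transcription factor, followed at 1.11 in the deposited table, in 91.6% against 6.9% of cells. Mymk, known as the muscle fusion protein myomaker, was at 1.06 there, in 86.9% against 1.1% of cells. Atp2a3, a calcium pump of the endoplasmic reticulum, was at 0.93 in the deposited table, in 92.5% against 4.9% of cells.

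The next 6 genes of this set were Fam169b (0.73 in the authors' deposited table), Fam214a (0.70), Gng8 (0.67), Dpy19l1 (0.64), Ankrd10 (0.62) and Nos1 (0.57). Gng8 codes for a G protein γ subunit and Nos1 for the neuronal nitric oxide synthase, which was in 68.2% of CGRP-z cells and 9.9% of other cells in the deposited table. Of these 10 genes 6 had an entry for CGRP-z alone. Fam214a had a larger fold change in Unknown.3 (0.92 in the deposited table, not past the filter), so a missing call elsewhere does not by itself mean a lower level.

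The difference in detection gave a partly different order. In the authors' deposited table the largest difference in the share of cells was that of Adora2b, an adenosine receptor gene, with 94.4% of CGRP-z cells and 4.8% of other cells (log2 fold change 0.85). It was followed by Gm43154, Atp2a3, Tmc3, Klhl1, Mymk, Nhlh2, Cntnap5c, Creb5 and Grm8, at 81.3 to 87.7 percentage points in the deposited table. Gm43154 overlaps Gm13849 on the same strand in the reference annotation, and both were higher, so their reads may be shared. Adora2b was higher in 1 other cluster, one that the authors named as peptidergic (0.69, in 36.8% of its cells in the deposited table). Creb5, a transcription factor of the CREB family, stood at 1.49 in CGRP-z and at 1.59 in the highest of the Unknown clusters in the deposited table.

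With the share of all cells that CGRP-z holds, the deposited fractions also give where the cells with a transcript lay. Of all cells in which Mymk was detected 52.2% were in CGRP-z, with a range of 51.1 to 53.4% from the rounding of the fractions. The corresponding shares were 46.7% for Tmc3, 35.0% for Fam169b, 21.4% for Adora2b, 20.7% for Atp2a3, 16.6% for Klhl1 and 15.5% for Nhlh2. For Tenm2 it was 5.54% and for Asic2 3.36%, so most cells with these leading genes lay outside the cluster. Over the 1045 higher genes the median was 3.16%, and 14 genes reached 20%. Chosen after their values were seen, Ccbe1 (52.1%), Aox3 (39.3%) and the cell cycle kinase gene Cdk1 (35.2%) also stood high. Cdk1 was in 58.9% of CGRP-z cells and 1.5% of other cells in the authors' deposited table, at a log2 fold change of 0.45.

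The name of the cluster was set against the gene of CGRP. Calca was in 99.1% of CGRP-z cells and 79.3% of other cells, with a log2 fold change of -0.51 and an adjusted p of 0.406 in the authors' deposited table, so it was not past the filter. For comparison, the 7 Unknown clusters had Calca in 34.2 to 61.0% of cells in the deposited table, and no depth per cell is given for any cluster. The other CGRP clusters had 1.92 (CGRP-e), 0.80 (CGRP-n) and 0.59 (CGRP-a) for Calca in the deposited table. Heat.sen had -3.98, Cold.sen -3.42, LTMR -3.27 and SST -4.43 there. The cluster named as peptidergic had 0.90, and Non-peptidergic had no entry for Calca. Calcb, the gene of the second CGRP peptide, was at -0.43 in CGRP-z in the deposited table and did not pass the filter. Tac1, the gene of substance P, had no entry for CGRP-z but the deposited table gave 1.31 for CGRP-e, 1.11 for CGRP-n and 0.52 for CGRP-a. Tenm2, Asic2 and Klhl1 lead the cluster by fold change, which does not bear on its name. The authors' name is used here as a name alone.

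**Figure D3:**
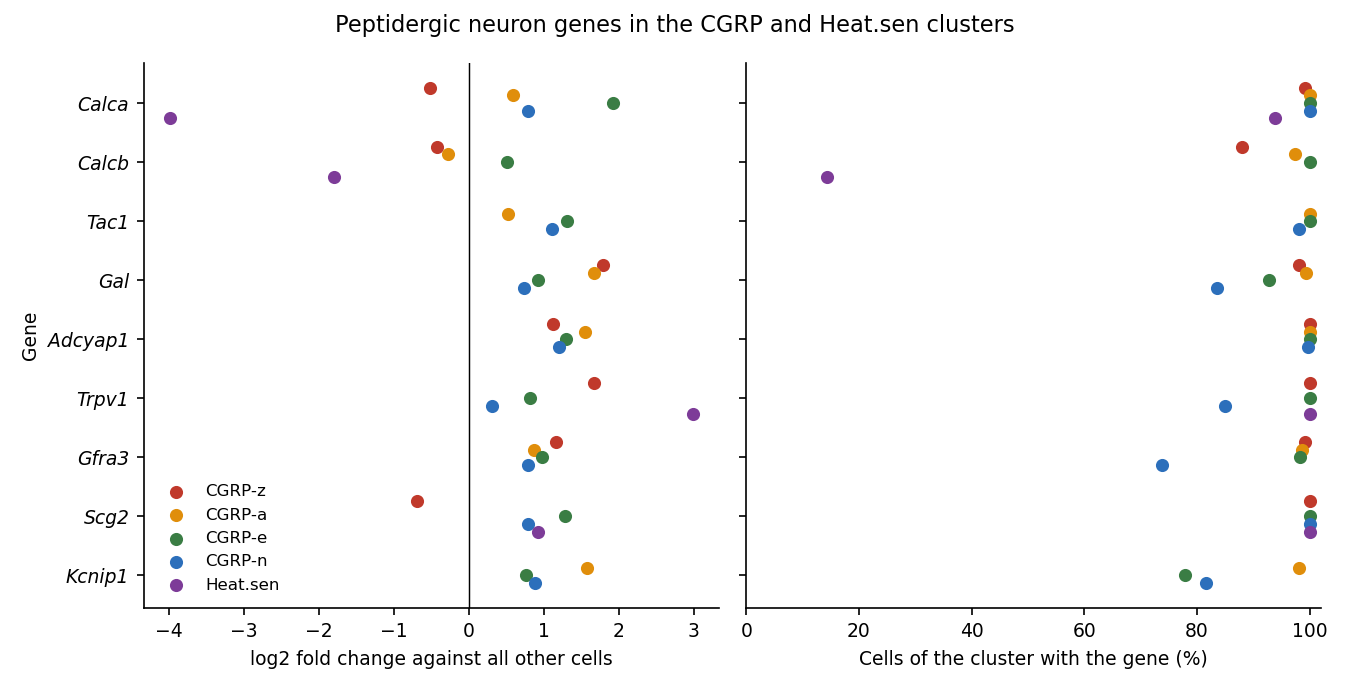
Log2 fold change against all other cells (left) and share of the cluster's cells with the gene (right, %) for genes of peptidergic neurons, in the 4 CGRP clusters and Heat.sen, each point being 1 cluster and a missing point a pair without an entry. CGRP-z lies to the left of the other CGRP clusters with an entry for Calca (-0.51), Calcb (-0.43), Scg2 (-0.69) and Adcyap1 (1.12). It is among the highest for Gal (1.79) and Gfra3 (1.17).

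Some other peptidergic genes were higher in CGRP-z. Of the list of 10 such genes 4 were higher (40%, against 11.3% of all genes), 1 was lower and 3 did not pass the filter. The median was 0.40 over the listed members. Gal, the gene of the neuropeptide galanin, was at 1.79 in CGRP-z in the authors' deposited table, with 1.67 for CGRP-a, 0.92 for CGRP-e and 0.74 for CGRP-n. Trpv1, the channel gated by heat and capsaicin, was at 1.67 and in 100% of CGRP-z cells there, against 2.98 in Heat.sen, 0.82 in CGRP-e and 0.32 in CGRP-n, with no entry for CGRP-a. Gfra3, the receptor for artemin, was at 1.17 and Adcyap1, the gene of the peptide PACAP, at 1.12 in the deposited table. For Gfra3 the deposited table gave 0.87 in CGRP-a, 0.98 in CGRP-e and 0.78 in CGRP-n. Adcyap1 was larger in these clusters than in CGRP-z, at 1.56, 1.30 and 1.21 there. Scg2, which codes for a protein of peptide granules, was at -0.69 without passing the filter.

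Markers used elsewhere to tell CGRP neuron subtypes apart had no call in CGRP-z. Sstr2, Oprk1 and Bmpr1b had no entry for CGRP-z, and Adra2a and Smr2 had none for any cluster in the table. In the authors' deposited table Sstr2 was at 0.90 in CGRP-a, Bmpr1b at 0.83 in CGRP-n and Oprk1 at 0.27 in CGRP-e. Of the 10 measured genes of myelinated neurons 3 were higher in CGRP-z (30%, against 11.3% of all genes), and 6 had no entry for it. The higher ones were Ntrk2, which codes for the BDNF receptor TrkB (1.48 in the deposited table), the neurofilament gene Nefm (0.31) and the sodium channel gene Scn1a (0.28). Nefh, the neurofilament gene most often used as a sign of myelination, was at -0.40 without passing the filter. Ntrk2 was in 98.1% of CGRP-z cells in the deposited table, against 9.4% in CGRP-a, 63.3% in Heat.sen and 88.1% in Unknown.2.

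Neuropeptide genes and the genes of their processing were counted next. Of 14 measured neuropeptide genes 3 were higher (21.4%, against 11.3% of all genes), namely Gal, Adcyap1 and Cartpt (0.30 in the authors' deposited table), and Nppb was lower (-0.74). Among 11 genes of peptide processing 5 were higher (45.5%) and 0 lower. Pam, the enzyme that amidates peptides, stood at 1.78 in the deposited table, in 100% of CGRP-z cells and 57.1% of other cells. Pcsk1n (0.84), Scg5 (0.54), Pcsk2 (0.50) and Pcsk1 (0.29) were the other 4 in the deposited table.

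Voltage-gated calcium channel genes were higher in 6 of 15 measured members and lower in 0, a share of 40.0% against 11.3% of all genes. They coded for pores of the R, P/Q, L and N types, namely Cacna1e (2.42 in the authors' deposited table), Cacna1a (1.25), Cacna1c (1.16), Cacna1b (0.81) and Cacna1d (0.37), and for the α2δ subunit bound by gabapentin, Cacna2d1 (1.58). Cacna1e was in 99.1% of CGRP-z cells, 95.9% of CGRP-a, 95.6% of CGRP-e and 85.2% of CGRP-n cells, but in 4.4% of Cold.sen and 2.2% of SST cells in the deposited table. Cacna2d1 stood at 1.44 for CGRP-a, 1.17 for CGRP-e, 1.47 for CGRP-n and 1.43 for Heat.sen in the deposited table.

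Sodium channel genes and their modulators were higher in 10 of 17 members (58.8%, against 11.3% of all genes) and lower in 0, with a median of 0.36 over the 12 listed. The largest values in the authors' deposited table were those of the leak channel Nalcn (1.00), the modulator Fgf13 (1.00) and Scn3a (0.84), followed by Scn7a (0.53). Scn10a and Scn11a, channels of nociceptors that resist tetrodotoxin, did not pass the filter, at -1.45 and -0.66 in the deposited table. Scn10a was in 34.6% of CGRP-z cells and 43.6% of other cells there, and Scn11a in 87.9% and 44.6%.

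Potassium channel genes were higher in 8 of 38 measured members (21.1%, against 11.3% of all genes) and lower in 1. The higher ones included Kcnb2 (1.55 in the authors' deposited table), Kcnc2 (1.43), Kcnma1, the pore of the large-conductance calcium-activated channel (1.39), the two-pore channel gene Kcnk2 (1.38) and the auxiliary subunit gene Dpp6 (1.04). Both Kcnma1 and its partner Kcnmb2 were thus among the higher genes. The lower gene was Kcnip4, an auxiliary subunit of A-type channels, at -1.89 in the deposited table, in 14.0% of CGRP-z cells and 43.3% of other cells. It was at 2.84 in LTMR and 1.59 in Non-peptidergic in the deposited table.

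Each list of sensory transduction channels had 0 to 3 higher genes, to be read against the 11.3% of all genes. Asic2 was the acid-sensing gene with an entry, of 3 measured. Of 11 measured TRP channel genes Trpv1, Trpm3 (0.91 in the authors' deposited table) and Trpc4 (0.56) were higher (27.3%), and Trpa1 was at -0.27 without passing the filter. Trpc4 was in 79.4% of CGRP-z cells and 12.7% of other cells in the deposited table. Of 6 measured mechanosensitive channel genes Kcnk2 was higher (16.7%), and the others, Piezo2 included, had no entry for CGRP-z. The 3 measured genes of ATP-gated channels had none either.

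Receptors for transmitters that act on primary afferent endings were among the higher genes. Grm7 and Grm8, which code for metabotropic glutamate receptors coupled to inhibitory G proteins, were 2 of 3 measured members of their list and stood at 1.94 and 1.82 in the authors' deposited table. Grm8 was in 93.5% of CGRP-z cells in the deposited table, 85.4% of LTMR, 52.9% of Cold.sen and 42.9% of Heat.sen cells, and had no entry for the 3 other CGRP clusters. Of 10 measured GABA and glycine receptor genes 4 were higher (40.0%, against 11.3% of all genes) and 0 lower, among them Gabrg3 (2.09 in the deposited table), Gabrb1 (0.92) and the GABA-B receptor gene Gabbr2 (0.63). Gabrg3 was also higher in Cold.sen (1.40), CGRP-a (0.96), CGRP-n (0.75) and CGRP-e (0.63) in the deposited table.

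Ionotropic glutamate receptor genes were higher in 3 of 14 measured members (21.4%, against 11.3% of all genes), Gria1 (1.27 in the authors' deposited table), Grin3a (1.10) and Grin1 (0.28). Gria1 was in 100% of CGRP-z cells and 28.3% of other cells in the deposited table. Of 9 measured inhibitory receptor genes 4 were higher (44.4%). They were the cannabinoid receptor gene Cnr1 (1.22 in the deposited table), the neuropeptide Y receptor gene Npy1r (0.72), the μ opioid receptor gene Oprm1 (0.57) and the adenosine receptor gene Adora1 (0.47). Cnr1 was in 94.4% of CGRP-z cells, 83.6% of CGRP-a, 80.3% of CGRP-e and 83.6% of CGRP-n cells, and in 14.2% of LTMR cells, in the deposited table. Oprm1 was larger in CGRP-a (1.21), Cold.sen (1.06), CGRP-e (1.03) and SST (0.98) than in CGRP-z there, and smaller in CGRP-n (0.45). None of 11 measured serotonin, histamine and acetylcholine receptor genes had an entry for CGRP-z.

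Adhesion genes were often higher. Among teneurins, latrophilins and FLRTs, which bind each other across cell contacts, 7 of 10 were higher and 0 lower. This share of 70.0%, against 11.3% of all genes, was the highest of the functional lists. One of these 7 genes is Tenm2, which leads the cluster by fold change. Besides Tenm2 these were Adgrl3 (1.57 in the authors' deposited table), Tenm4 (1.00), Tenm1 (0.75), Flrt2 (0.41) and Tenm3 (0.32), with 1 further latrophilin gene. All 4 teneurin genes were thus higher, with Tenm2 detected in the smallest share of other cells, 22.9% against 34.4 to 41.4% for the other 3 in the deposited table.

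Neurexins and partners at synapses were higher in 11 of 23 measured members (47.8%, against 11.3% of all genes) and lower in 0. They included Cntnap5c (1.77 in the authors' deposited table), Cntnap4 (1.50) and Cntnap5a (1.07). Cntnap5a and Cntnap5c are close copies, and how reads were divided between them is not known. Cntnap5c was otherwise higher in CGRP-e (0.81) and CGRP-n (0.36) in the deposited table. Cadherins and protocadherins were higher in 7 of 19 measured members (36.8%), with Pcdh7 (1.96), Pcdh15 (1.93) and Pcdh9 (1.85) well above Cdh2 (0.73) in the deposited table. Pcdh9 was at 0.33 in CGRP-e there, and at -1.62 in CGRP-a without passing the filter. Contactins and IgLONs were higher in 7 of 19, led in the deposited table by Lsamp (2.15), Opcml (1.47) and Ncam1 (1.46). Axon guidance genes were higher in 5 of 29, or 17.2%, near the 11.3% of all genes, with Sema6d at 1.28 and the Slit receptor gene Robo2 at 0.98 in the deposited table.

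Genes of transmitter release were higher in 14 of 25 measured members (56.0%, against 11.3% of all genes) and lower in 1, with a median of 0.56. Cadps, which primes vesicles for release, stood at 1.03, Cplx2 at 1.01, Syt9 at 0.97 and the glutamate transporter gene Slc17a6 at 0.77 in the authors' deposited table. The lower member, named after its value was seen, was Unc13c at -0.66, in 2.8% of CGRP-z cells and 23.6% of other cells in the deposited table. Neuronal cytoskeleton genes were higher in 7 of 14, among them Gap43 (1.11) and Mapt (0.88) in the deposited table. RNA-binding splicing regulators were higher in 10 of 16 and lower in 0, led in the deposited table by Celf4 (1.46) and Khdrbs2 (1.42).

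Signalling genes with a call were all higher in both lists examined. Of 24 measured genes of cyclic nucleotide signalling 9 were higher (37.5%, against 11.3% of all genes) and 0 lower, led by the cyclic GMP-dependent kinase gene Prkg1 (1.57 in the authors' deposited table), the anchor gene Akap6 (1.01) and the adenylate cyclase gene Adcy2 (0.98). Of 27 measured genes of protein kinase C and calcium signalling 9 were higher (33.3%), among them Pcp4, a calmodulin-binding peptide (1.37), and Camk2d (1.15) in the deposited table. Ryr3, a calcium release channel of the endoplasmic reticulum, was in 51.4% of CGRP-z cells and 7.5% of other cells in the deposited table (0.67).

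A list of transcription factors of sensory neurons, which holds neither Nhlh2 nor Creb5, had a share of higher genes near that of all genes. Of 34 measured members 2 were higher (5.88%, against 11.3% of all genes), Ebf3 (0.41 in the authors' deposited table) and Bcl11a (0.31). Zeb2 was lower (-0.30), yet in 96.3% of CGRP-z cells and 41.4% of other cells in the deposited table. Ebf1 was at -1.23 and Casz1 at -0.51 in the deposited table, both without passing the filter. Among kelch-like genes Klhl1, Klhl32 (0.55) and Klhl7 (0.26) were higher of 11 measured, and Klhl5 was lower (-0.88) in the deposited table.

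**Figure D4:**
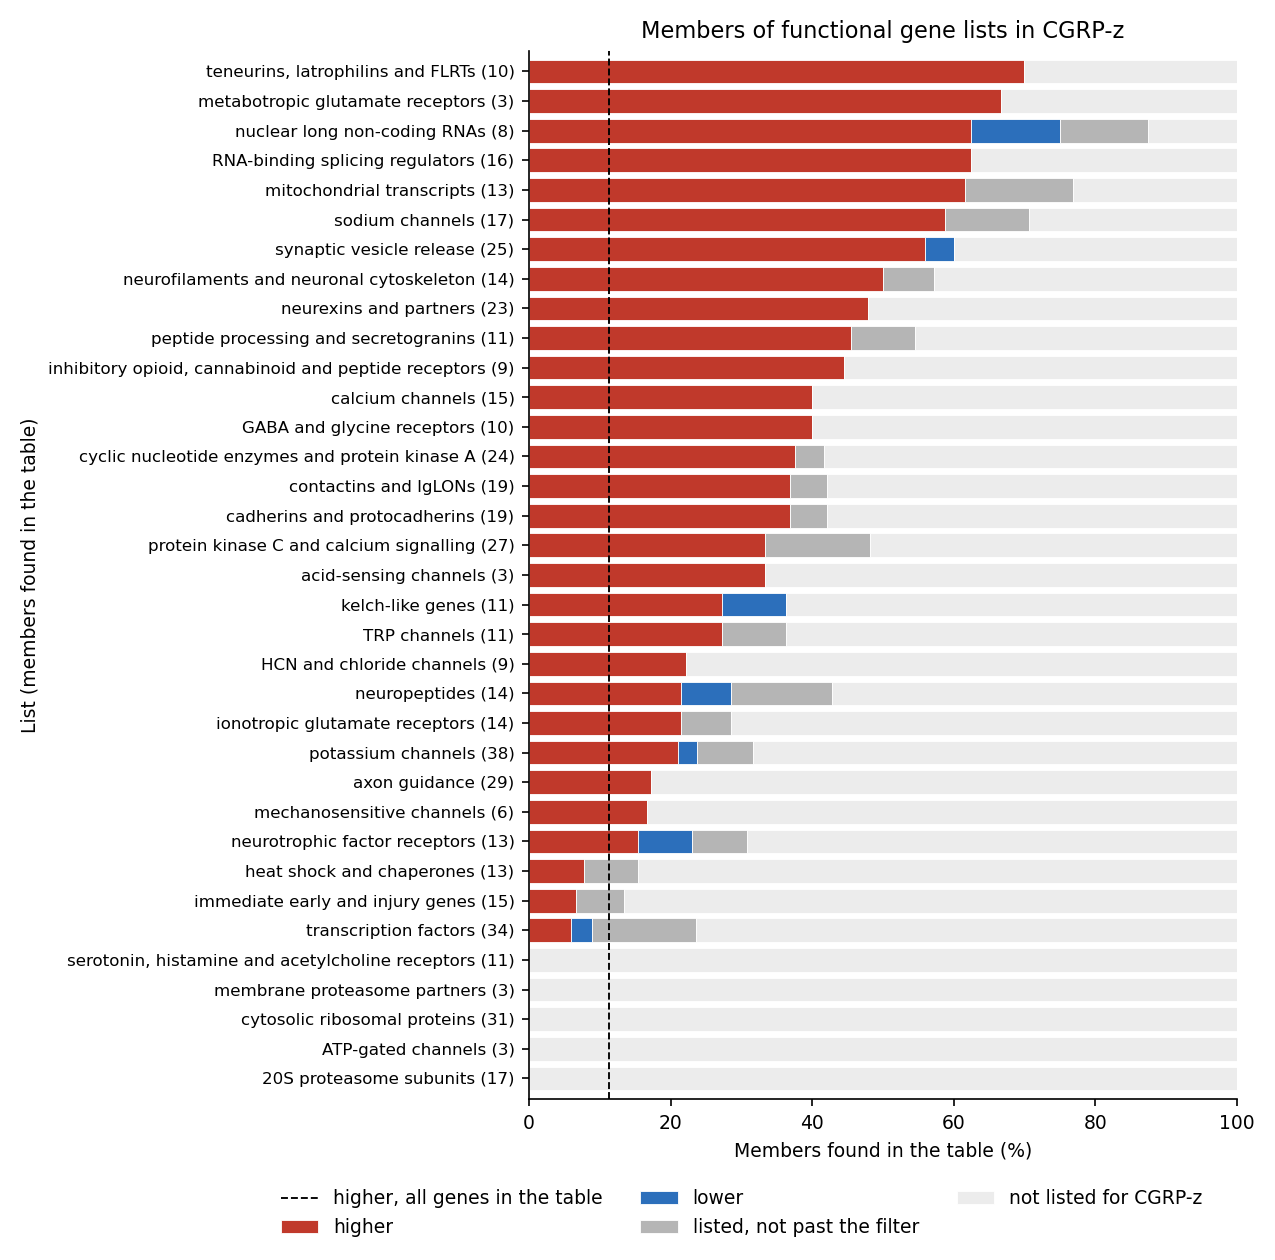
Members of 35 functional gene lists in CGRP-z, as a percentage of the members found in the table (number in brackets), split into higher, lower, listed without passing the filter, and not listed. The dashed line is the 11.3% of all genes that were higher; teneurins, latrophilins and FLRTs reach 70.0%, and transcription factors 5.88%.

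Genes of the proteasome, the basis of the sort, had no entry for CGRP-z. None of 17 genes of 20S subunits was listed, Psmb5 included, and neither were Gpm6a and Gpm6b, which code for membrane glycoproteins of neurons. The 31 ribosomal protein genes had no entry either. Only 16.2% of all genes in the table had an entry for CGRP-z, so a missing entry is the usual case. Of 13 mitochondrial transcripts 8 were higher (61.5%, against 11.3% of all genes), the largest fold change being that of mt-Nd1 (0.73 in the authors' deposited table). Of 8 measured nuclear long non-coding RNAs 5 were higher (62.5%), led by Meg3 (1.48 in the deposited table). Neat1 was lower (-0.32), yet in 59.8% of CGRP-z cells and 25.8% of other cells there.

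Few genes were both lower and rarer in CGRP-z. Of the 66 lower genes 24 were detected in a smaller share of CGRP-z cells and 42 in a larger one. The 10 of lowest fold change that were at least 20 percentage points rarer began with Timp3, an inhibitor of matrix proteases (-2.12 in the authors' deposited table), Kcnip4 (-1.89) and Nkain2 (-1.45). They went on with Kitl, the ligand of the receptor Kit (-1.31), the myelin-associated gene Mal (-1.13), the caveolin gene Cav1 (-1.08) and Hs6st2 (-1.04) in the deposited table. The last 3 were Hist1h2bc (-0.94), Klhl5 (-0.88) and Paqr5 (-0.78) in the deposited table. Timp3 overlaps Syn3 on the opposite strand in the reference annotation. Cav1 was in 0.0% of CGRP-z cells and 20.4% of other cells in the deposited table, and no upper limit is given, since the table does not state the number of cells. Timp3 (2.19), Kitl (3.28) and Cav1 (2.51) had their highest values in Unknown.1, and Nkain2 (3.24) and Mal (3.55) in Unknown.4, in the deposited table. Mal, Cav1 and Paqr5 were also lower in CGRP-a (-1.16, -1.11 and -0.80), CGRP-e (-1.18, -1.08 and -0.78) and CGRP-n (-1.20, -1.09 and -0.77) there. In contrast, Hs6st2 was higher in CGRP-a (0.52) and Kcnip4 in CGRP-e (0.34).

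Markers of other sensory neurons were not among the higher genes. None of 8 genes of non-peptidergic neurons, 4 of Mrgpra3 neurons, 8 of Sst neurons, 7 of Th-expressing touch neurons and 4 of cold-sensing neurons was higher. At the 11.3% of all genes, lists of this size hold few higher genes or none, so these counts do not set the lists apart. Mrgprd was in 1.9% of CGRP-z cells and 10.6% of other cells in the authors' deposited table, without passing the filter. Nppb was lower, yet in 22.4% of CGRP-z cells and 7.2% of other cells there.

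Of 28 markers of satellite glia, Schwann cells, endothelial cells, mural cells, fibroblasts and macrophages, 24 had no entry for CGRP-z and 1 was higher. Of all 9229 genes 7733 had no entry for CGRP-z, so the missing entries do not set these markers apart. The higher marker was Dcn, a matrix proteoglycan known from fibroblasts. It was at 1.91 in the authors' deposited table, in 96.3% of CGRP-z cells and 20.5% of other cells. It was in 72.6% of CGRP-e and 61.7% of CGRP-n cells, at -1.49 and -0.76, and in 2.1 to 5.4% of cells in the Unknown clusters other than Unknown.5 and Unknown.6 in the deposited table. The fibroblast marker Apod was lower at -3.04 although it was in 70.1% of CGRP-z cells and 20.4% of other cells in the deposited table. Apod stood at 8.19 in Unknown.6, in 100% of its cells, and at 1.18 in Unknown.5 there. It was at -3.33 in CGRP-e, -3.26 in CGRP-n and, without passing the filter, -3.39 in CGRP-a, so the low value is not particular to CGRP-z. The other fibroblast markers, Col1a1 and Col3a1, had no entry. The macrophage marker C1qb was lower (-0.58) and more widely detected (17.8% against 4.2%) in the deposited table, and Rgs5 of mural cells was at -1.04 without passing the filter. The part of transcripts from other cells in these values was not tested.

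The span of the genes differed with their fold change. The span is the distance from the first to the last base of a gene in GENCODE M21, introns included, and was found for 99.4% of the genes in the table. Its median was 31.6 kb over all genes in the table, 104 kb over the higher genes of CGRP-z, 32.8 kb over the lower ones and 27.0 kb over those not past the filter. Within the higher genes the median was 77.7 kb at a log2 fold change under 0.5, 155 kb from 0.5 to 1 and 328 kb at 1 or more. Of the latter 32.3% spanned at least 500 kb, against 2.28% of all genes in the table, and the median of the 20 leading genes was 857 kb. Tenm2 spans 1229 kb, Asic2 1088 kb and Lsamp 2197 kb, while Gal spans 4.63 kb. The 84 genes higher in no other cluster were shorter, with a median of 59.7 kb.

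The span of higher genes differed between the neuron clusters. Its median was 107 kb in Cold.sen, 98.7 kb in Heat.sen, 95.7 kb in CGRP-e, 78.9 kb in CGRP-a and 75.3 kb in CGRP-n. It was 52.2 kb in Non-peptidergic, 40.0 kb in SST and 38.4 kb in LTMR, and 15.2 kb in the cluster named as peptidergic, the lower genes of these 4 clusters having medians of 49.3, 55.8, 59.5 and 77.9 kb. It was 12.9 to 19.7 kb in the 3 Low.UMI clusters, whose lower genes had medians of 82.9 to 103 kb. The labels name a nuclei isolation protocol after the sort of live cells, and do not state whether intron reads were counted. The part of intron reads, and of gene span itself, in these fold changes was not tested.

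**Figure D5:**
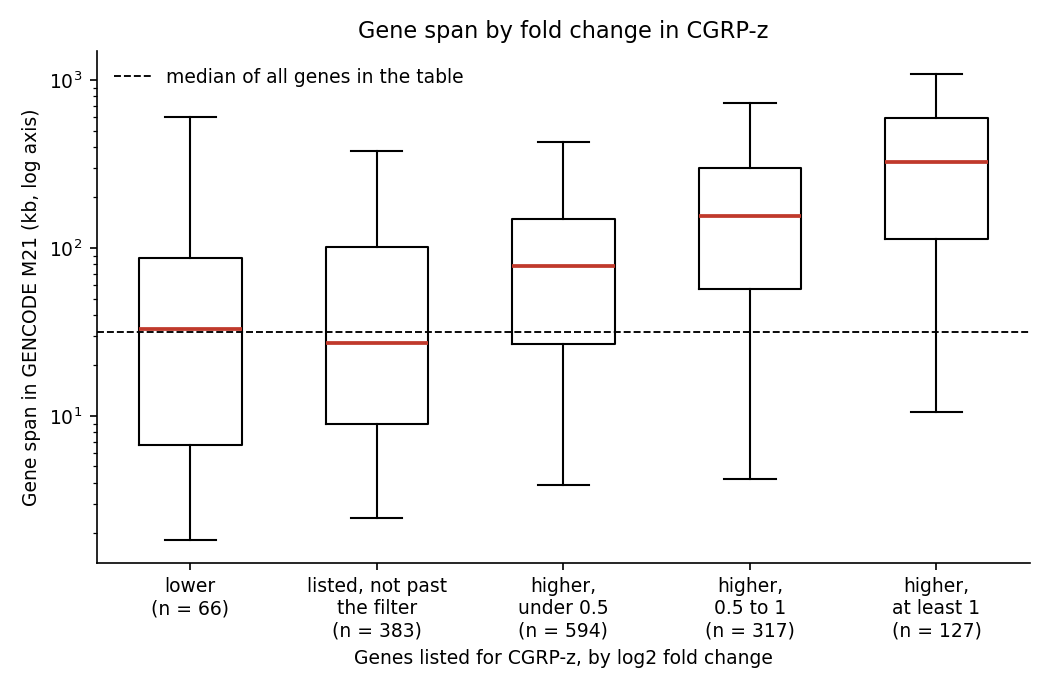
Gene span (vertical axis, kb, log scale) of the genes listed for CGRP-z, by call and log2 fold change. Boxes give the quartiles with the median in red, whiskers the 5th and 95th percentiles, and the dashed line the median of all genes in the table (31.6 kb); medians increase from 77.7 to 328 kb over the 3 classes of higher genes.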

How the data were processed

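Single-cell RNA was counted at 3′ ends in 8 samples, 4 NMP-positive and 4 NMP-negative, per the labels. Seurat is named in the submitters' processing notes. Neither the labels nor the file header give the aligner, the build, the cell filters and normalization, whether doublets were removed, the number of cells or their depth. Per the file headers, the authors deposited p-values and adjusted p-values, the log2 fold change between the cells of a cluster and the rest, and, on each side, the fraction of cells with a transcript of the gene, printed here as percentages. The deposited table holds no p-value over 0.01, no absolute log2 fold change under 0.25 and no pair with both fractions under 10%, and its adjusted p is the p-value times 32285.

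Genes were called at an adjusted p under 0.05. The share of cells in a cluster was solved by least squares (numpy 2.4.6) by requiring that the fractions inside and outside a cluster, weighted by its share, give the same overall fraction for a gene in every cluster. It used 6748 genes whose fractions were at least 5 percentage points apart, and left a residual of 0.0274 percentage points, against 0.0289 from rounding. The calculation was tested on simulated data. Gene spans came from GENCODE M21 (GRCm38), matched by symbol. Spans and overlaps between genes rest on the coordinates of that annotation, and none are printed.

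Members and the 49 lists were chosen with earlier results of these data known. Genes named were the 20 of largest fold change (in at least 25% of cells, 20 points more frequent, no predicted genes), the 10 lowest at least 20 points rarer, the 10 largest higher in no other cluster, the 10 of largest difference in detection, and up to 6 members of each list, or all of a list of at most 8. Some genes that this rule names are not reported here.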

Additional observations from a re-analysis of the deposited data

How the results depend on the processing

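Counts depended on the minimum fold change. With a minimum log2 fold change of 0.5, CGRP-z had 445 higher and 42 lower genes in place of 1045 and 66, and 112 called list members in place of 169. At 1 these were 127, 21 and 54. The median span of higher genes was then 328 kb in place of 104 kb. The 84 genes higher in no other cluster became 13 at 0.5 and 3 at 1. Lower genes numbered 24 when detection also had to be lower. With Benjamini-Hochberg adjustment over the listed genes alone, 449 genes were lower and 1047 higher, which is every listed gene. No listed p-value is over 0.01, so this outcome was fixed in advance and says nothing on how firm the calls are. An adjusted p under 0.01 and leaving out predicted genes kept the counts of higher genes, lower genes and list members within 1.5 times. A minimum detection of 25% of the cluster's cells did so for higher genes and list members. It was not run for lower genes, and none of these 3 settings was run for the 84 genes. The share of all cells was 1.36% under each alternative. Of 179 named genes, 84 lost their call at a minimum log2 fold change of 1. No paired analysis was possible because the table names no sample. Without cell numbers, depths or replicates, no interval could be given.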
